A study of Mus musculus with 8 samples.

Results

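Genes of the cell cycle and of DNA replication, 46 in number, were followed in T cells from the kidneys and spleens of lupus-prone mice. The list was fixed by gene name, and all 46 were found among the 13341 gene symbols of the deposited table. By role it held 11 regulators of G1 and of entry into S phase, 15 S phase genes, 19 genes of G2 and mitosis, and Stmn1, a regulator of tubulin. The question was how these genes differed between organs and between CD8+ and CD4+ cells, and whether S phase genes and mitotic genes did so alike. With limma, a linear model across all genes, 0 of the 44 genes high enough to test passed in any of 7 comparisons, in which 0% to 3.37% of all genes passed. The closest to passing was Ube2c, a gene of mitotic exit with lower values in all kidney libraries, and results that involve kidney CD4+ cells depended on which of their 2 unlike libraries was kept.

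The groups were kidney CD8+, kidney CD4+, spleen CD8+ and spleen CD4+ T cells, each with 2 libraries (n = 2 throughout). Every library came from MRL/lpr mice at 14 weeks of age. This strain lacks normal Fas, a death receptor, because of the lpr allele, and its kidneys become inflamed in a lupus-like disease. The allele is shared by all 4 groups, so no library here shows T cells with intact Fas. Cells with high surface CD44, a mark of antigen experience, were sorted, and RNA was amplified with the SMART-Seq v4 kit for very small inputs. The labels do not say whether the 2 libraries of a group came from separate mice or from pools, so p-values measure only the spread between these libraries.

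A dividing cell passes through G1, copies its DNA in S phase, and separates the copies in mitosis after the G2 gap. D-type and E-type cyclins switch on cyclin-dependent kinases in G1, which release E2F transcription factors, and these turn on genes for the replication machinery and for nucleotide supply. A later wave of genes builds the mitotic spindle and the kinetochores and runs the anaphase-promoting complex, a ubiquitin ligase that ends mitosis. In T cells, resting clones are largely out of cycle, and antigen drives division, so messages of these genes are widely read as a sign of a dividing fraction. In bulk RNA a smaller dividing fraction and less of a message per dividing cell cannot be told apart.

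Between 7477544 and 11169003 reads per library lay on genes. A level below is the deposited normalised count, that is, reads divided by 1 factor per library, and 1 read was worth 0.554 to 1.04 of it. The sort was visible in the data, with Cd8a at 12159 to 18556 in CD8+ libraries and 1.11 to 103 in CD4+ ones, and Cd4 at 0 to 17.8 in CD8+ libraries and 1365 to 2224 in CD4+ ones. Replicates were least alike in kidney CD4+ cells. Over all tested genes, which are no independent replicates, both libraries of a group correlated in log2 level at r = 0.883 in kidney CD8+, 0.772 in kidney CD4+, 0.958 in spleen CD8+ and 0.941 in spleen CD4+ cells. Cd3e, a chain of the T cell receptor complex, was at 637 in kidney CD4+ replicate 2, against 4225 to 6826 in the other libraries.

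The cell cycle genes shared that spread. In kidney CD4+ cells 32 of the 46 genes lay over 1 log2 unit apart between the replicates, beside 56.8% of all genes tested. The same held for 15 genes in kidney CD8+ (31.7% of all genes), 8 in spleen CD8+ (15.5%) and 9 in spleen CD4+ cells (19.4%). Of the S phase genes 11 of 15 were that far apart in kidney CD4+ cells, and replicate 1 was higher than replicate 2 by a median of 1.89 log2 units over all 15. Kidney CD4+ replicate 2 was over 1 log2 unit below every other library for Ccne2, Mcm5, Rrm1, Cdc45, Aurkb and Tpx2. Replicate 1 was that far below every other library for Mcm6, Dut, Cenpe and Kif11. Values of each group are given below in the order replicate 1, replicate 2.

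**Figure D1:**
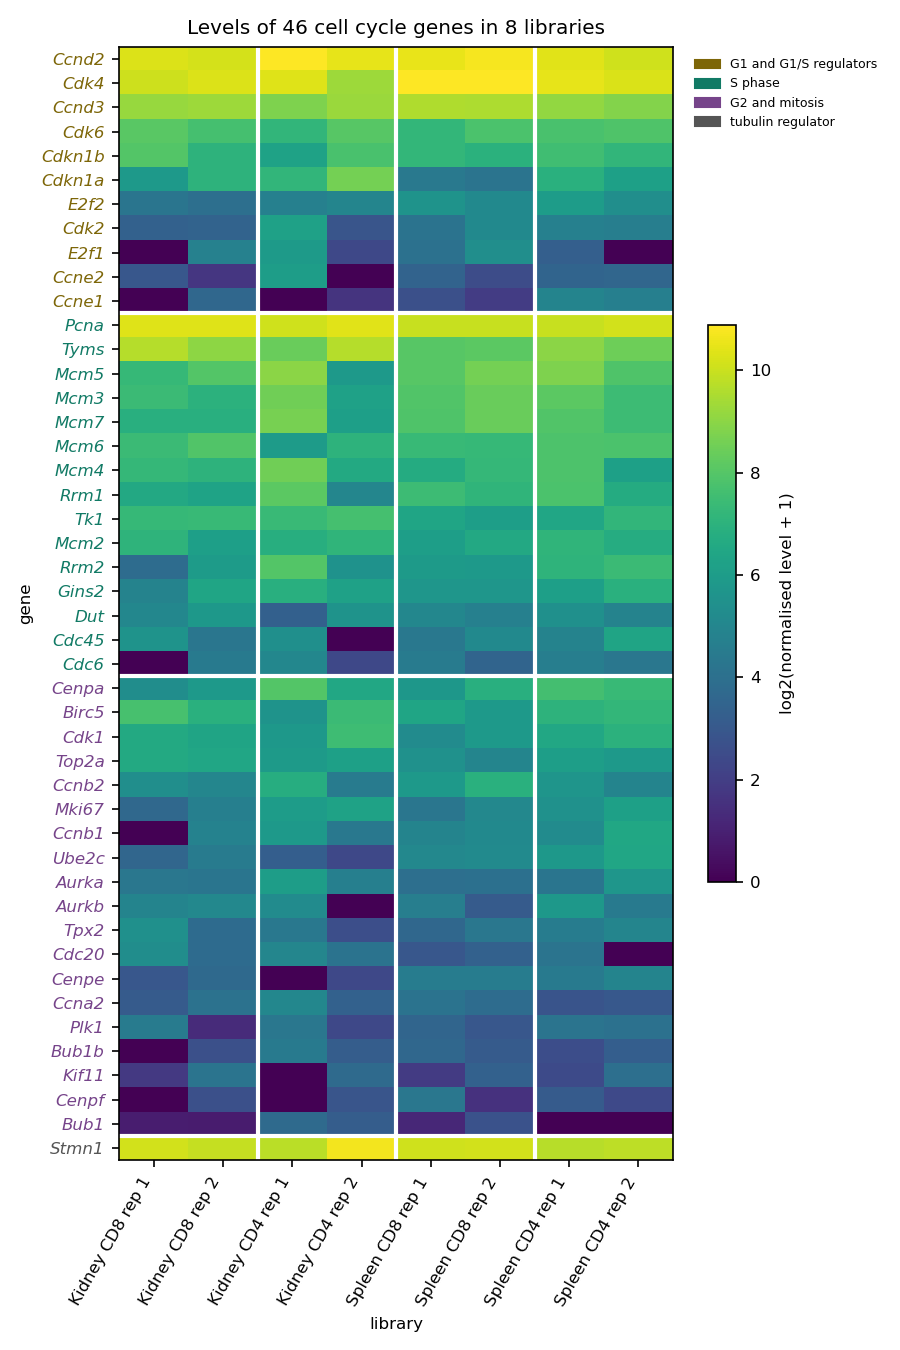
Levels of the 46 genes as log2(normalised level + 1), with 1 row per gene, sorted by mean level within each role, and 1 column per library. The D cyclins, Cdk4, Pcna, Tyms and Stmn1 were high in all 8 libraries, most G2 and mitosis genes were low, and the columns of kidney CD4+ replicates 1 and 2 differ in many S phase genes.

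Levels per kilobase of transcript spanned a wide range. The length was that of the annotated transcript with the longest coding part, so comparisons between genes depend on that choice. Averaged over the 8 libraries, Stmn1 came first with 1002 per kilobase, followed by Pcna with 755, Cdk4 with 644, Ccnd3 with 283, Ccnd2 with 250 and Tyms with 154. At the other end Bub1, a spindle checkpoint kinase, averaged 1.09 per kilobase and Cenpf, a kinetochore protein, 0.499. These were the 2 genes below the minimum for testing, a level of 10 in at least 2 libraries, so 44 of the 46 were tested. Bub1 had a level of 0.849 and 0.771 in kidney CD8+, 12.7 and 8.32 in kidney CD4+, 1.35 and 5.73 in spleen CD8+ and 0 in both spleen CD4+ libraries. Cenpf had 0 and 5.40 in kidney CD8+, 0 and 6.24 in kidney CD4+, 18.9 and 1.91 in spleen CD8+ and 7.76 and 4.31 in spleen CD4+ cells. Bub1 was highest in both kidney CD4+ libraries and lowest in both spleen CD4+ ones, while the Cenpf values of the groups overlapped. Such levels rest on few reads, and neither gene was tested. Pcna and Stmn1 have near-identical processed copies in the mouse genome, and their levels are uncertain where reads were split between copies, since the counting is not described.

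The D cyclins and their kinases were abundant in every group. Ccnd2, the cyclin D2 gene, had a level of 1281 and 1167 in kidney CD8+, 1883 and 1437 in kidney CD4+, 1483 and 1721 in spleen CD8+ and 1343 and 1084 in spleen CD4+ cells. In CD8+ cells the kidney libraries were below the spleen ones (log2 fold change -0.39 ± 0.33 SE, adjusted p = 0.767), and in CD4+ cells they were above (0.45 ± 0.33, adjusted p = 0.761). Ccnd3, the cyclin D3 gene, had 591 and 621 in kidney CD8+, 441 and 599 in kidney CD4+, 777 and 742 in spleen CD8+ and 548 and 465 in spleen CD4+ cells. Spleen CD8+ libraries held the highest Ccnd3 values, 0.59 ± 0.33 log2 units above spleen CD4+ ones (adjusted p = 0.992). Cdk4, the kinase partner of the D cyclins, was likewise highest in spleen CD8+ cells, at 1842 and 1850, against 1051 and 1252 in kidney CD8+ cells. All these differences were small and none passed the test.

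Cdkn1a, an inhibitor of cyclin-dependent kinases that stress and p53 induce (chromosome 17, 29227924 to 29237667, plus strand, mm9), was the G1 gene with the smallest p. Its level was 57.7 and 132 in kidney CD8+ and 142 and 389 in kidney CD4+ cells, against 20.2 and 17.2 in spleen CD8+ and 120 and 71.6 in spleen CD4+ cells. Within each lineage both kidney libraries lay above both spleen ones, and within each organ both CD8+ libraries lay below both CD4+ ones. The organ difference was 2.17 ± 0.66 log2 units in CD8+ cells (adjusted p = 0.221) and 1.33 ± 0.66 in CD4+ cells (adjusted p = 0.621), and 1.75 ± 0.47 averaged over both lineages (adjusted p = 0.110). The lineage difference averaged over both organs was -1.83 ± 0.47 (adjusted p = 0.148). None of these passed the test with limma. DESeq2 on the recovered reads called Cdkn1a in the CD8+ organ comparison (adjusted p = 0.0491), the averaged organ comparison (0.00478) and the averaged lineage comparison (0.0115). Over 18 alternatives the adjusted p of the CD8+ organ difference ran between 0.0313 and 0.896. Cdkn1b, a related inhibitor that holds resting cells in G1, had 247 and 130 in kidney CD8+, 75.4 and 214 in kidney CD4+, 147 and 124 in spleen CD8+ and 186 and 144 in spleen CD4+ cells. Its groups overlapped in every comparison.

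E2f2, a transcription factor of S phase entry, was lower in all 4 kidney libraries than in all 4 spleen ones. It had 17.8 and 14.6 in kidney CD8+ and 26.1 and 30.2 in kidney CD4+ cells, against 47.1 and 34.4 in spleen CD8+ and 63.7 and 40.5 in spleen CD4+ cells. The averaged organ difference was -1.05 ± 0.43 log2 units and did not pass the test (adjusted p = 0.317). Ccne1, the cyclin E1 gene, had 0 and 11.6 in kidney CD8+ and 0 and 2.08 in kidney CD4+ cells, against 5.39 and 2.86 in spleen CD8+ and 28.8 and 25.02 in spleen CD4+ cells. In CD4+ cells this was 2 reads over both kidney libraries against 81 in spleen, a kidney to spleen ratio of 0.0308 (95% exact counting interval 0.00366 to 0.115), and the test did not pass (adjusted p = 0.348). The interval covers counting error only. E2f1, Ccne2 and Cdk2 varied more within kidney CD4+ cells than between groups. Cdk2, the kinase of the E cyclins, had 73.3 and 6.24 there, and E2f1 had 59.9 and 4.16.

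S phase genes had a median level of 25.05 to 102 per kilobase of transcript, depending on the library. The promoters of Mcm5 and Mcm6 are shown because both genes encode subunits of the same replicative helicase and carry E2F letters, while their levels in kidney CD8+ cells lay on opposite sides of those in spleen CD8+ cells. Each stretch runs from 250 bases before to 50 after the gene's start, read from RefSeq on build GRCm38.p6. Mcm5 is at chr8:75109259-75109558 on the plus strand and Mcm6 at chr1:128359656-128359955 on the minus strand. Capitals mark E2F letters, that is TTTCCCGC, TTTCGCGC, TTTGGCGC or TTTGCCGC on either strand, and runs longer than 8 letters are overlapping matches on opposite strands.
Mcm5: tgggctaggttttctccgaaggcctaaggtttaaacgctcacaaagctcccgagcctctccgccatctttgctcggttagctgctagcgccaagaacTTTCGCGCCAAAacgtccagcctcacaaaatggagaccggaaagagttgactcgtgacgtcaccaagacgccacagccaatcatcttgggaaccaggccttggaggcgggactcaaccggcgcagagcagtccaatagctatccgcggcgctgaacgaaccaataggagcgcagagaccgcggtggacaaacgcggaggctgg
Mcm6: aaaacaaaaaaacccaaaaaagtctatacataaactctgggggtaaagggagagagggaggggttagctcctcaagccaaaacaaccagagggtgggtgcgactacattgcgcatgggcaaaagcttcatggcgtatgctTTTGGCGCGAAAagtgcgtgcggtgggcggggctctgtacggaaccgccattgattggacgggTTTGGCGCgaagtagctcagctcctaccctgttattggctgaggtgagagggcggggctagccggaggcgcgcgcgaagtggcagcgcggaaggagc

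Mcm5 had a level of 157 and 253 in kidney CD8+ and 503 and 57.2 in kidney CD4+ cells, against 263 and 390 in spleen CD8+ and 437 and 236 in spleen CD4+ cells. In CD8+ cells both kidney libraries lay below both spleen ones (log2 fold change -0.68 ± 0.88 SE, adjusted p = 0.862). In CD4+ cells the kidney replicates held the highest and the lowest value of all 8 libraries, and the difference from spleen (-0.91 ± 0.88, adjusted p = 0.832) depended on which was kept. It was 0.64 without replicate 2, and -2.47 without replicate 1, where it was called (adjusted p = 0.00548). Mcm6 had 172 and 240 in kidney CD8+ and 61.3 and 130 in kidney CD4+ cells, against 159 and 154 in spleen CD8+ and 228 and 223 in spleen CD4+ cells. In CD8+ cells the kidney libraries were above the spleen ones (0.38 ± 0.47, adjusted p = 0.856), and in CD4+ cells they were below (-1.33 ± 0.47, adjusted p = 0.377). The difference between these organ effects was 1.70 ± 0.66 log2 units and did not pass the test either (adjusted p = 0.999).

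The 6 helicase subunits lay on both sides of spleen in kidney CD8+ cells. Of all genes tested, 26.7% were higher there without overlap and 24.4% lower. Mcm3, Mcm5 and Mcm7 were lower in both kidney libraries than in both spleen ones, Mcm6 was higher, and Mcm2 and Mcm4 overlapped. Mcm7 had 115 and 114 in kidney CD8+ cells, against 238 and 340 in spleen CD8+ cells (-1.31 ± 0.73, adjusted p = 0.592). Mcm3 had 171 and 126 in kidney CD8+ cells, against 243 and 339 in spleen CD8+ cells (-0.96 ± 0.70, adjusted p = 0.716). The SE of these genes is pooled over the 4 groups and so takes in the unlike kidney CD4+ pair. With kidney CD4+ replicate 1 or 2 left out, Mcm7 was called in this comparison (adjusted p = 0.0405 and 0.0346).

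Enzymes that make thymidine nucleotides had higher values in both kidney CD8+ libraries than in both spleen CD8+ ones. Tyms, thymidylate synthase, had 815 and 522 in kidney CD8+ and 335 and 814 in kidney CD4+ cells, against 263 and 280 in spleen CD8+ and 508 and 359 in spleen CD4+ cells. The CD8+ kidney libraries stood above the spleen ones by 1.26 ± 0.49 log2 units (adjusted p = 0.384), and the CD4+ groups overlapped (0.29 ± 0.49, adjusted p = 0.918). Tk1, the cytosolic thymidine kinase of the salvage pathway, had 154 and 160 in kidney CD8+ and 167 and 204 in kidney CD4+ cells, against 82.2 and 67.8 in spleen CD8+ and 84.8 and 141 in spleen CD4+ cells. Tk1 was the 1 member with all 4 kidney libraries above all 4 spleen ones, by 0.90 ± 0.31 on average (adjusted p = 0.227). Dut, which clears dUTP, had 32.3 and 55.5 in kidney CD8+ cells, against 31.6 and 25.8 in spleen CD8+ cells. Rrm1, the large subunit of ribonucleotide reductase, lay the other way, with 93.4 and 78.6 in kidney CD8+ cells, against 176 and 137 in spleen CD8+ cells. Rrm2, its small subunit, had 13.6 and 62.4 in kidney CD8+, 251 and 45.8 in kidney CD4+, 59.9 and 56.3 in spleen CD8+ and 135 and 169 in spleen CD4+ cells. Over both organs Rrm2 was 1.60 ± 0.64 log2 units lower in CD8+ than in CD4+ cells (adjusted p = 0.446).

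Pcna, the sliding clamp of the replication fork, varied least among the S phase genes described here. It had 1311 and 1310 in kidney CD8+ and 1082 and 1326 in kidney CD4+ cells, against 1001 and 1013 in spleen CD8+ and 993 and 1140 in spleen CD4+ cells. The kidney CD8+ pair stood above the spleen CD8+ pair by 0.38 ± 0.31 log2 units (adjusted p = 0.751). Low S phase genes were erratic. Cdc6, which loads the helicase, was at 0 in kidney CD8+ replicate 1 and at 20.8 in replicate 2. Cdc45, a helicase cofactor, was at 41.6 in kidney CD4+ replicate 1 and at 0 in replicate 2.

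Genes of G2 and mitosis were lower than S phase genes, with a median level of 4.30 to 10.7 per kilobase of transcript over the 8 libraries. The promoters of Top2a and Ube2c are shown because both carry CHR letters. CHR stands for cell cycle genes homology region, a promoter element of late cell cycle genes. The other reason was that the levels of both genes in kidney CD8+ cells lay on opposite sides of those in spleen CD8+ cells. Top2a is at chr11:99024140-99024439 on the minus strand and Ube2c at chr2:164769679-164769978 on the plus strand, again from RefSeq on GRCm38.p6 over the same window. Capitals mark the CHR letters TTTGAA or TTCGAA on either strand.
Top2a: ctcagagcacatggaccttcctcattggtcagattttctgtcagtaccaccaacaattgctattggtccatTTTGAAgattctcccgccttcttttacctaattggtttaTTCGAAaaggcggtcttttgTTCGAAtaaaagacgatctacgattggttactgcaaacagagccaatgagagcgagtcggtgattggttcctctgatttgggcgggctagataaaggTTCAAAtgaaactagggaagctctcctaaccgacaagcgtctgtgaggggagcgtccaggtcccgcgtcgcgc
Ube2c: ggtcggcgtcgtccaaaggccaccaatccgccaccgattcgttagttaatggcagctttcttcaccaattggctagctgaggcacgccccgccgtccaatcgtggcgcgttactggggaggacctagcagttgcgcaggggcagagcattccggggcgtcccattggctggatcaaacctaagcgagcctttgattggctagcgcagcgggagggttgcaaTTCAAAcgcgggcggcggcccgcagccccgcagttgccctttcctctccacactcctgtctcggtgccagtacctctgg

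Ube2c, the ubiquitin-conjugating enzyme of the anaphase-promoting complex (chromosome 2, 164595398 to 164604322, plus strand, mm9), came closest to a call. Its level was 11.03 and 22.4 in kidney CD8+ and 8.46 and 4.16 in kidney CD4+ cells, against 32.3 and 36.3 in spleen CD8+ and 55.4 and 85.4 in spleen CD4+ cells. All 4 kidney libraries lay below all 4 spleen ones. The kidney values rest on 13, 29, 12 and 4 reads, against 48, 38, 100 and 99 in the spleen libraries in the same order of groups. In CD4+ cells the difference was -3.32 ± 0.72 log2 units (adjusted p = 0.0921), in CD8+ cells -1.07 ± 0.72 (adjusted p = 0.690), and averaged over lineages -2.20 ± 0.51 (adjusted p = 0.0617). None passed with limma. It passed in CD4+ cells with DESeq2 (log2 fold change -3.48, adjusted p = 0.00293), and, averaged over lineages, with DESeq2 (0.00311) and with a pseudocount of 10 (0.0467).

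Cenpe, a kinesin of the kinetochore, had the same order of organs. It had 6.79 and 12.3 in kidney CD8+ and 0 and 4.16 in kidney CD4+ cells, against 22.9 and 22.9 in spleen CD8+ and 21.6 and 29.3 in spleen CD4+ cells. The averaged organ difference was -2.38 ± 0.70 (adjusted p = 0.152). In CD4+ cells 4 kidney reads stood against 73 spleen reads, a kidney to spleen ratio of 0.0682 (95% exact counting interval 0.0181 to 0.182). Without kidney CD4+ replicate 2 the averaged difference passed (adjusted p = 0.0238).

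Top2a, the topoisomerase that untangles replicated chromosomes, was higher in both kidney than in both spleen libraries of CD8+ cells and overlapped in CD4+ cells. It had 95.9 and 86.3 in kidney CD8+ and 60.6 and 70.8 in kidney CD4+ cells, against 44.4 and 29.6 in spleen CD8+ and 68.2 and 56.1 in spleen CD4+ cells. The CD8+ organ difference was 1.30 ± 0.50 log2 units (adjusted p = 0.384) and the CD4+ one 0.08 ± 0.50 (adjusted p = 0.982). The difference between the lineages was 1.22 ± 0.71 and did not pass (adjusted p = 0.999). Cdk1, the kinase that starts mitosis, had 95.9 and 81.7 in kidney CD8+ and 55.0 and 178 in kidney CD4+ cells, against 37.0 and 57.3 in spleen CD8+ and 90.9 and 127 in spleen CD4+ cells. Birc5, a subunit of the chromosomal passenger complex, had 208 and 118 in kidney CD8+ cells, against 82.8 and 56.3 in spleen CD8+ cells (1.19 ± 0.65, adjusted p = 0.587). Against these, Ccnb1, the cyclin B1 gene and partner of Cdk1, had 0 and 27.0 in kidney CD8+ cells, against 29.0 and 34.4 in spleen CD8+ cells. Mitotic genes therefore lay on both sides of spleen within kidney CD8+ cells, as did genes at large. Without overlap, 26.7% of all genes tested were higher there and 24.4% lower.

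Mki67, which encodes the proliferation antigen Ki-67, had lower values in CD8+ than in CD4+ cells of both organs. It had 11.9 and 24.7 in kidney CD8+ and 64.1 and 76.0 in kidney CD4+ cells, and 18.2 and 32.5 in spleen CD8+ and 44.9 and 72.5 in spleen CD4+ cells. It was the 1 member with all 4 CD8+ libraries below all 4 CD4+ ones. The lineage difference averaged over organs was -1.58 ± 0.46 log2 units (adjusted p = 0.224), and the averaged organ difference was -0.10 ± 0.46 (adjusted p = 0.946). Cenpa, the histone variant that marks centromeres, had 39.9 and 57.8 in kidney CD8+ and 246 and 90.5 in kidney CD4+ cells, and 53.9 and 116 in spleen CD8+ and 197 and 160 in spleen CD4+ cells. Its averaged lineage difference was -1.39 ± 0.44 (adjusted p = 0.268), and DESeq2 called it just inside the threshold (adjusted p = 0.04999). Stmn1, which takes tubulin out of microtubules and is phosphorylated in mitosis, had 1120 and 957 in kidney CD8+ and 866 and 1635 in kidney CD4+ cells, and 1083 and 1111 in spleen CD8+ and 825 and 901 in spleen CD4+ cells.

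**Figure D2:**
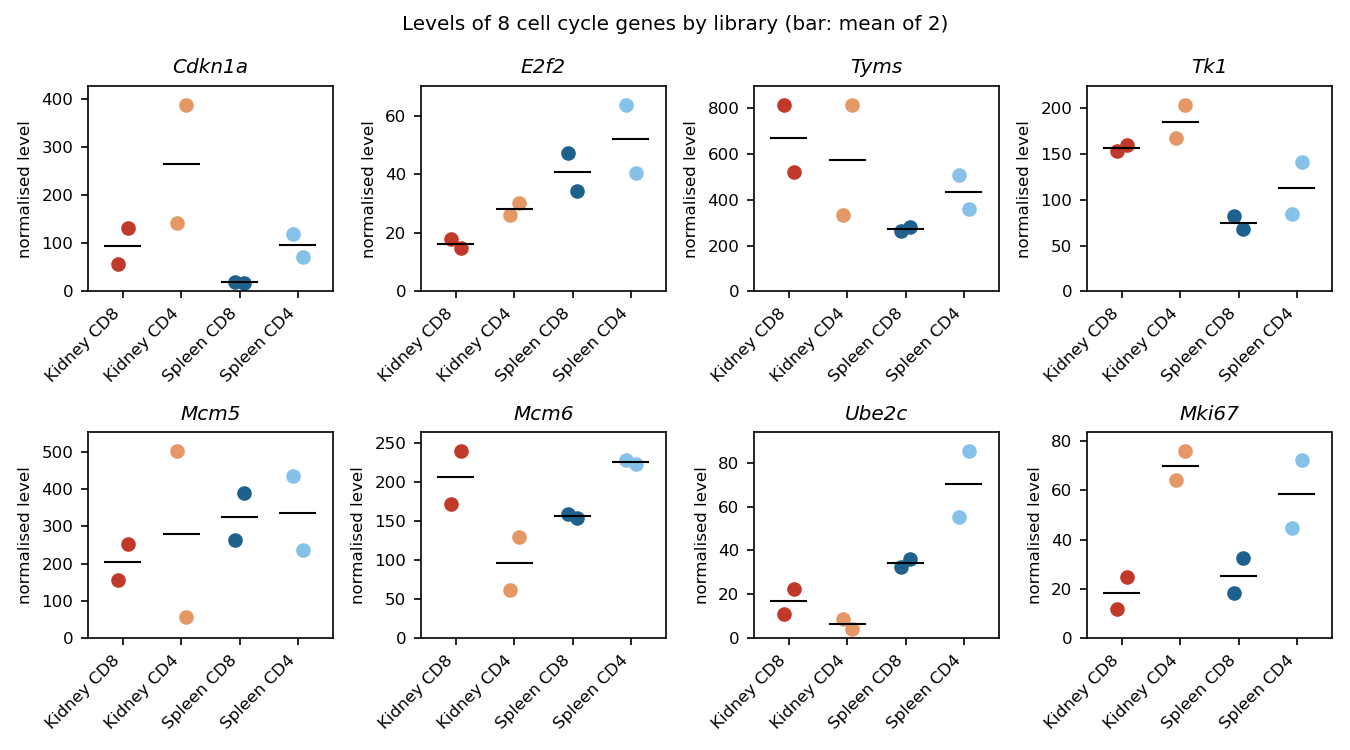
Normalised level of 8 genes in each of the 8 libraries, with 1 point per library, 1 column per group and a bar at the mean of the 2 libraries. Ube2c and E2f2 are lower and Tk1 is higher in all kidney libraries than in all spleen libraries, Mki67 is lower in all CD8+ libraries than in all CD4+ ones, and the Mcm5 values of kidney CD4+ cells, 503 and 57.2, enclose those of every other group.

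The E2F and CHR letters were spread unevenly over the roles. A promoter window was found for 38 of the 46 genes. CHR letters were present in 13 of 16 G2 and mitosis genes (81.2%), 3 of 13 S phase genes (23.1%) and 1 of 9 G1 genes. They were present in 21.7% of all 27025 genes with a window. E2F letters were present in 5 of 13 S phase genes (38.5%), among them Mcm3, Mcm5, Mcm6 and Mcm7. They were also present in 1 of 16 G2 and mitosis genes (6.25%), Cdk1, against 2.60% of all genes with a window. CCAAT boxes, CCAAT on either strand, were present in 69.2% of S phase and 93.8% of G2 and mitosis genes, against 41.1% of all these genes. Of the 4 windows shown, those of Mcm5 and Mcm6 held no CHR letters and those of Top2a and Ube2c no E2F letters. A match is a description of letters, and its part in the levels was not tested.

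**Figure D3:**
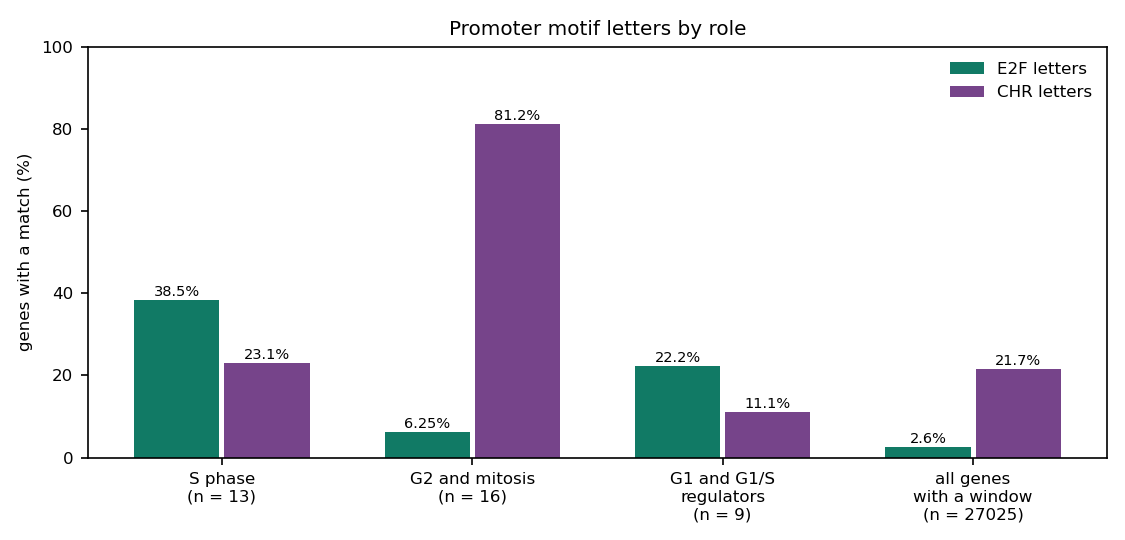
Share of genes (%) whose promoter window of 300 bases holds the E2F letters or the CHR letters, for S phase genes, G2 and mitosis genes and G1 regulators with a window, and for all genes with a window. CHR letters stand at 81.2% in G2 and mitosis genes against 21.7% in all genes, and E2F letters at 38.5% in S phase genes against 2.60%.

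S phase genes and mitotic genes were set against each other by their mean log2(level + 1) in each library, over 15 and 19 genes. The S phase mean was 6.44 and 6.86 in kidney CD8+, 7.34 and 6.10 in kidney CD4+, 6.76 and 6.85 in spleen CD8+ and 7.27 and 7.06 in spleen CD4+ cells. The mitotic mean was 3.80 and 4.27 in kidney CD8+, 4.50 and 4.09 in kidney CD4+, 4.29 and 4.36 in spleen CD8+ and 4.63 and 4.64 in spleen CD4+ cells. The mitotic mean of each lineage was lower in both kidney libraries than in both spleen ones, by 0.29 log2 units in CD8+ and 0.34 in CD4+ cells, and highest in spleen CD4+ cells. S phase means of the organs overlapped in both lineages. Sums of levels, which the most abundant genes dominate, gave another order in CD8+ cells. The S phase sum was 3394 and 3241 in kidney CD8+ cells, against 2780 and 3144 in spleen CD8+ cells, so kidney was higher without overlap. The mitotic sum was 674 and 584 in kidney CD8+ cells, against 496 and 602 in spleen CD8+ cells, with overlap, and the mitotic median per kilobase was higher in kidney, at 9.92 and 7.31 against 5.68 and 4.51. In CD4+ cells the mitotic sum was 886 and 733 in kidney, against 849 and 946 in spleen, and overlapped. Without division by length the mitotic median was slightly lower in kidney CD8+ cells, at 18.7 and 17.7, against 18.9 and 19.1 in spleen CD8+ cells. Lower mitotic values in kidney CD8+ cells thus held for the mean of logs and this median. They did not hold for the sum or the median per kilobase. The number of the 46 genes at 0 was 6 and 0 in kidney CD8+, 4 and 3 in kidney CD4+, 0 and 0 in spleen CD8+ and 1 and 3 in spleen CD4+ libraries. No p is given for these means because the genes were chosen with earlier results known.

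The gap between both means, S phase minus mitosis, was 2.64 and 2.59 log2 units in kidney CD8+ cells, against 2.47 and 2.49 in spleen CD8+ cells. This difference of 0.133 exceeded the pooled SD of replicates, 0.0274, but did not keep its sign. It was -0.0235 with a pseudocount of 10, 0.00699 over the genes that passed the test minimum, and -0.100 when Ccne1, Ccne2, E2f1 and E2f2 were counted as S phase and Mki67 and Ccna2 were left out. In CD4+ cells the gap was 2.84 and 2.01 in kidney, against 2.64 and 2.42 in spleen, and the difference of -0.107 was smaller than the spread of the kidney replicates. Summed reads came to 383 to 658 CPM for S phase and 68.5 to 147 CPM for mitotic genes over the 8 libraries. On a second set of cell cycle genes without these 46, 36 of S phase and 43 of G2 and mitosis, the gap was 0.50 and 0.41 in kidney CD8+ cells, against 0.29 and 0.39 in spleen CD8+ cells. It was 0.73 and 0.35 in kidney CD4+ cells, against 0.25 and -0.17 in spleen CD4+ cells, so both kidney libraries lay above both spleen ones in each lineage on that set.

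**Figure D4:**
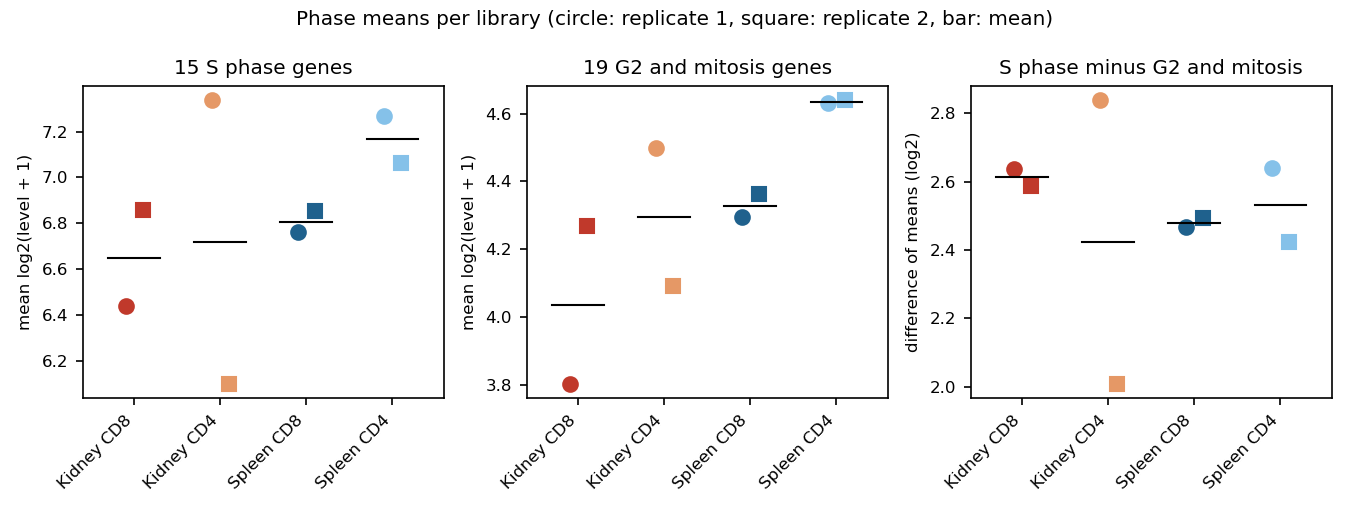
Mean log2(level + 1) per library over the 15 S phase genes and the 19 G2 and mitosis genes, and the difference of both means in log2 units, by group, with a circle for replicate 1, a square for replicate 2 and a bar at their mean (the axes do not start at 0). Mitotic means of kidney cells, 3.80 to 4.50, lie below those of spleen cells of the same lineage, while S phase means overlap and are farthest apart within kidney CD4+ cells, at 7.34 and 6.10.

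In CD8+ cells, the organ comparison set genes of the same role on opposite sides, as it did genes at large. Among genes whose 2 kidney libraries did not overlap the 2 spleen ones, 12 of the 44 were higher in kidney, beside 26.7% of all genes tested, and 14 were lower, beside 24.4%. The higher ones were Cdkn1a of the G1 group, Mcm6, Pcna, Tyms, Tk1 and Dut of S phase, and Top2a, Cdk1, Cdc20, Aurka, Aurkb and Birc5 of mitosis. The lower ones were Ccnd2, Ccnd3, Cdk4, Cdk2 and E2f2 of the G1 group, Mcm3, Mcm5, Mcm7 and Rrm1 of S phase, and Ccnb1, Ccnb2, Bub1b, Ube2c and Cenpe of mitosis. With limma, 0 of the 44 were called at an adjusted p below 0.05, beside 1.55% of all genes. At an unadjusted p below 0.05, 4 were higher (7% of all genes), namely Cdkn1a, Tyms, Top2a and Tk1, and 0 were lower (3.58%). edgeR on the recovered reads also called 0 (0.913% of all genes), DESeq2 called Cdkn1a (4.72%), and library weights led to calls of Cdkn1a and Tyms (5.32%). The median log2 fold change was -0.32 over the 44 and 0.00 over all genes, with 0.15 for S phase, -0.31 for mitotic and -0.49 for G1 genes. Without kidney CD4+ replicate 1 or without replicate 2, which enter through the pooled spread alone, Cdk4, Cdkn1a, Mcm7 and Tyms were called (7.11% and 7.12% of all genes).

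In CD4+ cells, non-overlap between organs was no more frequent among these genes than among all genes. Ube2c, Cenpe and Ccne1 lay farthest below spleen. Ccnd2, Cdkn1a, Tk1 and Ccna2, the cyclin A2 gene, were higher without overlap, 4 of 44 beside 16.3% of all genes. Ccne1, E2f2, Mcm6, Ube2c, Cenpe and Tpx2 were lower, 6 of 44 beside 15.6%. Limma called 0, beside 0.959% of all genes. Before adjustment, 0 were higher at p below 0.05 (5.45% of all genes) and 4 were lower (3.66%), namely Ube2c, Cenpe, Ccne1 and Mcm6. edgeR called 0 (0.609%) and DESeq2 called Ube2c (3.25%). The median log2 fold change was -0.27 over the 44 and -0.08 over all genes, with -0.42 for S phase and -0.25 for mitotic genes. The result depended on which kidney CD4+ library was kept. Without replicate 1, Cdkn1a and Stmn1 were called higher and Aurkb, Cdc45, Cdk4, Mcm3, Mcm5, Mcm7, Rrm1 and Ube2c lower, when 22.2% of all genes were called. Without replicate 2, Cenpe and Mcm6 were called lower, when 3.12% were called. The lone kidney CD4+ library is then assumed to vary like the other groups. The CD8+ and CD4+ organ comparisons share no library, but they share the pooled spread.

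**Figure D5:**
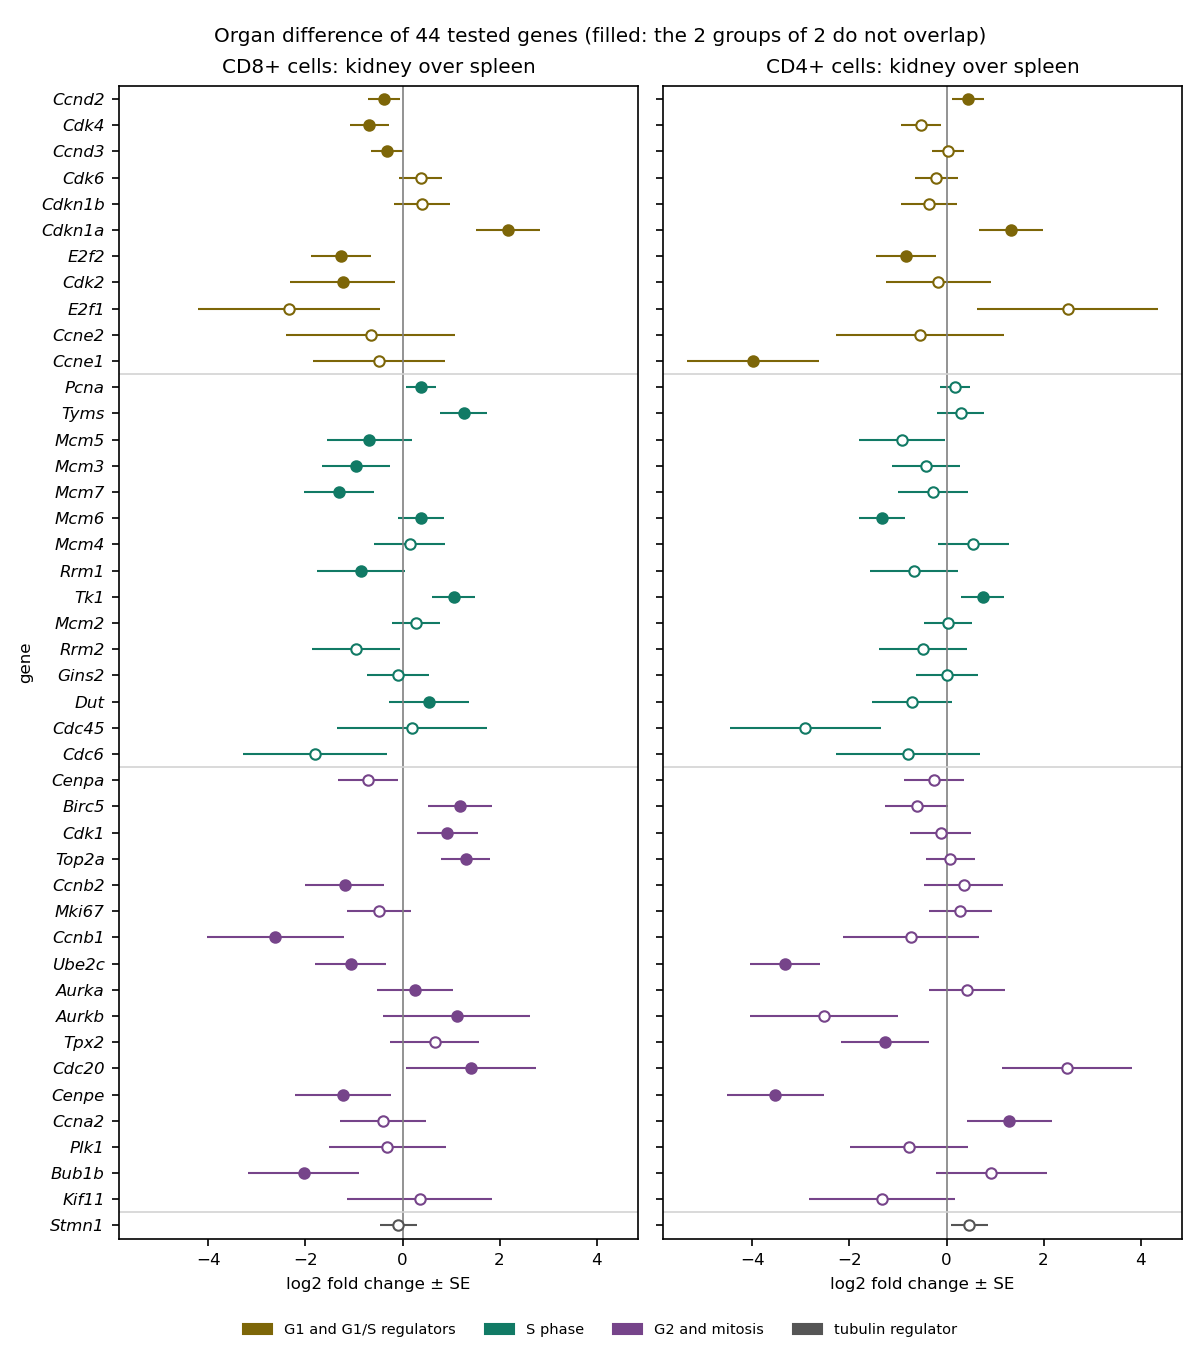
Log2 fold change of kidney over spleen with its pooled SE for the 44 tested genes, in CD8+ cells (left) and CD4+ cells (right), coloured by role and filled where the 2 kidney and the 2 spleen libraries do not overlap. In CD8+ cells filled points lie on both sides of 0 within each of the 3 main roles, and in CD4+ cells Ccne1, Cenpe and Ube2c lie farthest below 0, at -3.99, -3.53 and -3.32.

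Averaged over both lineages, the smallest p-values between kidney and spleen belonged to Ube2c, Cdkn1a and Cenpe, while the log2 fold changes farthest from 0 were those of Cenpe (-2.38), Ccne1 (-2.24), Ube2c (-2.20) and Cdc20 (1.95). Limma called 0 of the 44, beside 3.37% of all genes, and edgeR 0 (3.1% of all genes), while DESeq2 called Cdkn1a and Ube2c (7.28%), a pseudocount of 10 Ube2c (3.22%) and library weights 0 (2.83%). At an unadjusted p below 0.05, Cdkn1a and Tk1 were higher (2 of 44, 8.58% of all genes) and Ube2c, Cenpe, E2f2 and Ccne1 lower (4 of 44, 5.62%). All 4 kidney libraries were above all 4 spleen ones for Tk1, 1 of 44 beside 5.84% of all genes, and below them for E2f2, Ube2c and Cenpe, 3 of 44 beside 3.6%. Without kidney CD4+ replicate 1, 11 were called (26.1% of all genes), and without replicate 2 Cenpe alone was (8.22%). The difference between the organ effects of CD8+ and CD4+ cells was called for 0 of the 44 and for 0% of all genes with limma and edgeR, and for 0 of the 44 with DESeq2 (0.111% of all genes). At an unadjusted p below 0.05 it was higher for Mcm6 alone, 1 of 44 beside 2.17% of all genes, and lower for 0 (1.17%). Without kidney CD4+ replicate 1 it was called for Aurkb and Cdc45, when 7.3% of all genes were.

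Transcripts of other cell types, some from lineages that divide, also stood apart between organs. The 9 erythroid markers used summed to 698 to 1865 in kidney libraries and to 11059 to 20676 in spleen ones. Most of the kidney sum was Car2, a carbonic anhydrase gene, which lay the other way, at 415 to 1660 in kidney and 125 to 312 in spleen. The globin gene Hba-a1 was at 3.52 to 137 in kidney and 5402 to 9311 in spleen. Further globin genes lay the same way, Hbb-bs at 0 to 32.3 in kidney and 1823 to 3696 in spleen. Hbb-b1 was at 0 to 146 in kidney and 3594 to 7164 in spleen. Alas2 and Klf1 were at 0 in all kidney libraries, and Klf1 was at most 0.554 in spleen. The remaining erythroid markers overlapped between organs. Tfrc was at 20.4 to 79.1 in kidney and 35.3 to 65.3 in spleen, and Epor and Slc4a1 were at most 4.99 in any library. The 10 markers of neutrophils and their precursors summed to 0 to 29.6 in kidney and to 3685 to 9402 in spleen, with Ngp, Elane and Prtn3 at 0 in all kidney libraries. The 9 proximal tubule markers summed to 6453 to 24264 in kidney and to 0 to 8.87 in spleen, where 7 were at 0 in both CD8+ libraries and 6 in both CD4+ ones. The 7 macrophage markers summed to 1781 to 6792 in kidney and 838 to 2247 in spleen, and the 4 B cell markers to 182 to 247 in kidney and 368 to 978 in spleen. The 6 plasma cell markers summed to 481 to 1343 in kidney and 956 to 2422 in spleen. Jchain was the largest part, at 201 to 729 in kidney and 750 to 2094 in spleen. Xbp1 (108 to 168 in kidney, 42.0 to 135 in spleen) and Prdm1 (120 to 419, against 50.6 to 163) leaned the other way, with overlap. None of these sums overlapped between organs within a lineage. Pooled over lineages, the macrophage and plasma cell sums did overlap. The sums moved with the same contrast as Ube2c, Cenpe, E2f2, Cdkn1a and Tk1. The part of these cells in those differences was not tested.

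Between lineages in spleen, more of the 44 genes were lower than higher in CD8+ cells. By non-overlap, other S phase and other mitotic genes showed no such lean, while other G1 genes leaned lower. Of the 44, 19 were lower in both CD8+ libraries, beside 26% of all genes, and 7 were higher, beside 19.8%. The lower ones included Mcm2, Mcm6, Rrm2, Tyms, Tk1 and Gins2 of S phase and Mki67, Top2a, Cdk1, Ccnb1, Aurka, Plk1, Birc5, Ube2c, Cenpa and Tpx2 of mitosis. The higher ones were Ccnd2, Ccnd3, Cdk4, E2f1, Ccna2, Ccnb2 and Stmn1. Limma called 0 (0.36% of all genes), as did edgeR (0.415%) and DESeq2 (2.16%). At an unadjusted p below 0.05, Cdkn1a was lower (1 of 44, 4.4% of all genes) and 0 were higher (2.03%). The median log2 fold change was -0.49 over the 44 and -0.05 over all genes, with -0.84 for mitotic, -0.46 for S phase and -0.28 for G1 genes. Among the 33 other S phase genes tested, 10 were higher and 5 lower without overlap, with a median of 0.01. Among the 33 other G2 and mitosis genes 10 were higher and 8 lower, with a median of -0.07. Among the 18 other G1 genes 4 were higher and 7 lower, with a median of -0.18. With library weights Cdkn1a was called (adjusted p = 0.00570, 6.14% of all genes).

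In kidney, mitotic genes lay on both sides of the lineage comparison. Mcm6, Top2a, Ube2c and Cenpe were higher in both CD8+ libraries, 4 of 44 beside 13.8% of all genes. Ccnd2, E2f2, Cdkn1a, Tk1, Mki67, Aurka, Bub1b and Cenpa were lower, 8 of 44 beside 14.1%. Limma called 0 (0.203% of all genes), as did edgeR (0.221%) and DESeq2 (2.07%). Before adjustment, Mcm6 was higher at p below 0.05 (1 of 44, 3.78% of all genes) and Mki67 and Cenpa were lower (2 of 44, 4.73%). Without kidney CD4+ replicate 1, Aurkb, Cdc45, Cdk4 and Mcm5 were called higher (11.3% of all genes), and without replicate 2 Mcm6 was called higher and Cenpa, Mcm7 and Rrm2 lower (13.2%). Averaged over both organs, limma called 0 (1.3% of all genes), edgeR 0 (1.25%) and DESeq2 Cdkn1a and Cenpa (4.11%). At an unadjusted p below 0.05, 0 were higher (3.68%) and Cdkn1a, Mki67, Cenpa and Rrm2 were lower (4 of 44, 6.2%). Without kidney CD4+ replicate 1, Cdk4 was called higher and Cdkn1a lower (10.8% of all genes), and without replicate 2 Cenpa and Rrm2 were called lower (12.9%). Non-overlap over all 8 libraries was met by Mki67, 1 of 44 lower beside 3.61% of all genes, with 0 of 44 higher beside 2.2%. Macrophage markers summed to 2353 and 1781 in kidney CD8+ libraries, 6792 and 6507 in kidney CD4+, 838 and 1446 in spleen CD8+ and 1676 and 2247 in spleen CD4+ ones. The plasma cell marker sum was lower in CD8+ than in CD4+ cells of both organs. It was 570 and 481 in kidney CD8+, 1343 and 723 in kidney CD4+, 956 and 1595 in spleen CD8+ and 1658 and 2422 in spleen CD4+ libraries. In spleen the erythroid sum was also lower in CD8+ cells, at 16883 and 11059 against 20676 and 17130 in CD4+ cells, and the B cell sum was higher, at 978 and 881 against 415 and 368. The part of these cells in the lineage differences was not tested. The kidney and spleen lineage comparisons use the same 8 libraries as the organ comparisons and are not independent of them.

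Other genes of the same pathway were taken from widely used lists of S phase and of G2 and mitosis genes, without the 46, and from a list of G1 regulators and inhibitors. Of 37 other S phase genes 36 were in the table and 33 were tested, of 44 other G2 and mitosis genes 43 and 33, and of 22 other G1 genes 22 and 18. With limma 3 were called, all in the organ comparison averaged over lineages. Lig1, the DNA ligase that joins Okazaki fragments, was higher in kidney, with 445 and 242 in kidney CD8+ and 298 and 403 in kidney CD4+ cells, against 116 and 120 in spleen CD8+ and 105 and 152 in spleen CD4+ cells (log2 fold change 1.46 ± 0.31 SE, adjusted p = 0.0460). Cdc25b, a phosphatase that activates Cdk1, was lower, with 84.0 and 47.0 in kidney CD8+ and 104 and 116 in kidney CD4+ cells, against 155 and 167 in spleen CD8+ and 379 and 280 in spleen CD4+ cells (-1.45 ± 0.32, adjusted p = 0.0470). Kif23, a kinesin of cell division's last step, was lower, with 19.5 and 12.3 in kidney CD8+ and 9.16 and 7.28 in kidney CD4+ cells, against 131 and 201 in spleen CD8+ and 30.5 and 16.4 in spleen CD4+ cells (-2.33 ± 0.48, adjusted p = 0.0360). These 3 calls were lost when any 1 of the 6 libraries other than the kidney CD4+ ones was left out, with adjusted p between 0.0567 and 0.269. The remaining tested genes of these lists passed in none of the 7 comparisons. The median of the averaged organ difference was -0.08 for other S phase and -0.10 for other mitotic genes, beside -0.06 for all genes. For the 15 S phase and 17 tested mitotic genes of the 46 it was -0.47 and -0.42.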

How the data were processed

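RNA of sorted T cells was sequenced, with 2 libraries in each of 4 groups. The authors deposited a table of normalised signal, with genes of mouse build mm9, per the labels. The submitters' processing notes name STAR 2.5.3 and TopHat2 2.1.0. Neither the aligner behind the values nor the counter and its annotation is stated in the sources used here, and how reads of low genes were assigned could affect these most. Deposited values were whole multiples of 1 step per library in 100% of cases (tolerance 1e-06), which gave the recovered reads, and 0 columns went unused.

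The 4 group means were fitted with limma 3.58.1 (R 4.3.3) to log2(level + 1) over all 8 libraries, with an intensity trend, 2-sided. The 10845 genes tested reached a level of 10 in 2 libraries or more. Adjustment was by Benjamini and Hochberg's method over all of them, separately for the 7 comparisons, and a call means an adjusted p under 0.05. Adjusted p-values are limma's unless another tool is named. This log scale understates fold changes of low genes, and the SE is pooled over groups. The alternatives were edgeR 4.0.16 and DESeq2 1.42.0 on recovered reads, another pseudocount and filter, TMM scaling, library weights, a length correction, a replicate block and leaving out each library. Transcript lengths and gene positions came from an mm9 annotation, and promoters from RefSeq. The tests were first checked on simulated data in which all groups had the same spread. That check does not cover the unlike kidney CD4+ pair.

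The 46 genes, their roles and the other lists were chosen with earlier results of these data known. Values in every library are given for up to 4 genes of each role with the smallest p over the 4 simple comparisons, for 9 fixed genes and for called genes of the other lists. Further members are named by range, count or non-overlap, some of them after their values were seen. The erythroid list was used without 1 marker, which is not reported here.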

Additional observations from a re-analysis of the deposited data

How the results depend on the processing

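The count of called genes among the 44 was 0 in each of the 7 comparisons and stayed 0 with edgeR, TMM scaling, no filter, a filter at a level of 50 and the length correction, as it did with the compared libraries alone where these could be fitted. With DESeq2 it was 1 in the CD4+ and 1 in the CD8+ organ comparison, and 2 each in the averaged organ and lineage comparisons. With library weights it was 2 in the CD8+ organ comparison and 1 between lineages in spleen, and with a pseudocount of 10 it was 1 in the averaged organ comparison. With 1 library left out the count ranged from 0 to 10 in the CD4+ organ, 0 to 4 in the CD8+ organ, 0 to 11 in the averaged organ, 0 to 4 in the kidney lineage, 0 to 0 in the spleen lineage, 0 to 2 in the averaged lineage comparison and 0 to 2 for the difference between organ effects. All counts above 0 there came from leaving out a kidney CD4+ library, and the lone library left is assumed to vary like the other groups. The replicate block called 0 in every comparison, and same-numbered libraries correlated at -0.155 to 0.0559 in their deviations, so the numbers are taken to pair nothing.

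The 32 single-gene differences followed over the alternatives were picked by their p with all libraries. They were the simple comparison with the smallest p of each gene followed, and further differences with a small unadjusted p. The alternatives reuse the same libraries, so a kept sign is largely set by this choice and does not show that a difference is robust. Over these differences, 557 of 559 values kept their sign. The exceptions were Cdkn1b between kidney lineages, 0.49 with all libraries and -0.26 to 1.24 with 1 left out, and Mcm5 in the CD4+ organ comparison, -0.91 with all and -2.47 to 0.64 with 1 left out. The S phase minus mitosis difference in CD8+ cells, 0.133, became -0.0235 with a pseudocount of 10, 0.196 with the length correction, -0.100 under the other assignment of genes and 0.00699 over genes past the filter. Between lineages in spleen it was -0.0512, and became -0.161 with medians and 0.111 over genes past the filter. With 1 library left out this difference ranged from -0.522 to 0.308 in the CD4+ organ, 0.108 to 0.157 in the CD8+ organ, -0.226 to 0.604 in the kidney lineage and -0.159 to 0.0568 in the spleen lineage comparison. Apart from left-out libraries the cause of these shifts was not tested. The calls of Lig1, Cdc25b and Kif23, whose alternatives were added after seeing the data, were lost with the replicate block (adjusted p = 0.0895, 0.0800 and 0.0645) and with library weights (0.0611, 0.0773 and 0.119), those of Lig1 and Cdc25b with the length correction (0.0654 and 0.0715), and that of Lig1 with edgeR (0.0544) and TMM scaling (0.0546). Mitotic genes had median levels of 12.5 to 31.7 per library, so their values rest on few reads.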

Other observations

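A pair of cell cycle genes outside the 46, picked after their values were seen, came close to a call. Ccnd1, the cyclin D1 gene, a G1 cyclin used by many tissue cells, had a level of 26.3 and 40.1 in kidney CD8+ and 25.4 and 72.8 in kidney CD4+ cells, against 4.04 and 2.86 in spleen CD8+ and 8.31 and 0.863 in spleen CD4+ cells. All 4 kidney libraries lay above all 4 spleen ones, by 3.16 ± 0.72 log2 units (SE) averaged over lineages (limma adjusted p = 0.0564). The summed proximal tubule markers were also above spleen in every kidney library, and their part in this difference was not tested. Ckap2, a spindle protein gene, had 13.6 and 16.2 in kidney CD8+ cells and 0 reads in both kidney CD4+ libraries, against 13.5 and 23.9 in spleen CD8+ and 28.8 and 18.1 in spleen CD4+ cells. In CD4+ cells both kidney libraries lay below both spleen ones (limma adjusted p = 0.0556), and in CD8+ cells the organs overlapped.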
